A study of Mus musculus with 30 samples.

Results

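The genes described here are 32 genes of cholesterol synthesis, its control, cholesterol uptake and handling inside the cell, and export, out of 20730 gene symbols that all 3 deposited count tables list. They were chosen by name: 19 genes of synthesis, 5 of control, 5 of uptake and handling, and 3 of export. A gene was taken as a member in a population where its mean over the 6 libraries reached 1 CPM, the unit of read counts scaled to library size. By that rule 31 were members in CD4+ CD8+ thymus cells (the double-positive or DP stage) and in thymus CD4 single-positive cells (CD4 SP), and all 32 in thymus CD8 single-positive cells (CD8 SP), spleen CD4 cells and spleen CD8 cells. The gene left out in the first 2 populations was Fdps, farnesyl diphosphate synthase, which had 2 to 10 counts per library in the table of those populations, against 384 to 630 in the spleen table and 1536 to 2030 in the thymus CD8 SP table. The table of the first 2 populations lists 21983 symbols, against 46095 in the spleen table and in the thymus CD8 SP table. Whether the low Fdps count comes from the cells or from the counting was not tested. Every member passed the filter on low counts in each population where it counted as a member.

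The libraries came from T cells sorted by flow cytometry from C57BL/6 mice of 2 genotypes. Wild type mice (WT) are described by the labels no further. Knockout mice (CKO) were CD4-Cre+ PRMT5fl/fl, so that the Cre under the Cd4 promoter deletes the gene of the arginine methyltransferase PRMT5 from the DP stage on. No group carried Cre alone, so Cre and the loss of Prmt5 cannot be told apart, and ages and treatments are not given in the labels used here. There were 3 numbered mice per genotype in each of the 5 populations and 30 libraries in all. Thymus DP and thymus CD4 SP libraries carry the same animal numbers, as do the spleen CD4 and CD8 libraries, and log2 fold changes are CKO over WT unless another contrast is named.

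Cells make cholesterol from acetyl-CoA through mevalonate, squalene and lanosterol. The factor SREBP2, the product of Srebf2, switches on the genes of that route. SCAP carries SREBP2 out of the endoplasmic reticulum when sterol is scarce, and the INSIG proteins hold it there when sterol is plentiful. Liver X receptors, of which Nr1h2 encodes the beta form, respond to oxidised sterols and raise the exporters ABCA1 and ABCG1 and the ubiquitin ligase encoded by Mylip, which lowers lipoprotein uptake. Srebf1 is another target of these receptors. T cells that are activated and divide raise cholesterol synthesis.

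Promoters were read for 26 of the 32 members from RefSeq, build GRCm38.p6, in windows from 250 bases before to 50 after the start site, and 3 patterns were searched first on both strands: the sterol regulatory element TCACNCCAC, the CCAAT box, and the direct repeat of AGGTCA with 4 bases between that liver X receptors can bind. The first was in the window of 1 member, Hmgcs1, 137 bases before the start. By window, it was in 2.94% of member windows and in 1.24% of all windows. The CCAAT box was in windows of 22 of 26 members. By window, it was in 67.6% of member windows against 37.4% of all windows. The direct repeat in this strict form was in no member window and in 0.0152% of all windows. A form of it known from the Abca1 promoter, GGTTACT and GGTCA with 3 bases between, was added after looking at the windows and was found in Abca1 and Srebf1 and in 0.0183% of all windows. Since it was taken from knowledge of Abca1, its match there is no independent observation, and a match is not a site shown to be bound. The stretches below are the 250 bases before the start of genes that the spleen results turn on, and of Srebf1 for the shared repeat, read 5′ to 3′ along the gene with the match in capitals. They lie at chr13:119690101-119690350 (plus strand, Hmgcs1), chr5:28071162-28071411 (plus strand, Insig1), chr15:82147019-82147268 (plus strand, Srebf2), chr4:53159896-53160145 (minus strand, Abca1) and chr11:60210472-60210721 (minus strand, Srebf1). In Hmgcs1 the capitals mark the sterol regulatory element, in Insig1 and Srebf2 the CCAAT box read on the other strand, and in Abca1 and Srebf1 the repeat on the other strand. The Srebf1 stretch precedes a start inside the gene. The window at the 5′ end of Srebf1, chr11:60222532-60222831, did not hold the repeat.
Hmgcs1: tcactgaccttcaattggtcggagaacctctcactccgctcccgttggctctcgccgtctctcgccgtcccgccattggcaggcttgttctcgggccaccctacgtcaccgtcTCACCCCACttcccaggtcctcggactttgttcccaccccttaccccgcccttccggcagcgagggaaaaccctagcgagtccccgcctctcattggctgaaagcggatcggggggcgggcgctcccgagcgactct
Insig1: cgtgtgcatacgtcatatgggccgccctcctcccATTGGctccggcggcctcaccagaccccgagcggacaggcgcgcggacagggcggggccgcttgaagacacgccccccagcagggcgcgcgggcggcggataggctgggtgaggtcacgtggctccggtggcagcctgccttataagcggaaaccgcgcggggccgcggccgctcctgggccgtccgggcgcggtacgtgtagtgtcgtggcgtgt
Srebf2: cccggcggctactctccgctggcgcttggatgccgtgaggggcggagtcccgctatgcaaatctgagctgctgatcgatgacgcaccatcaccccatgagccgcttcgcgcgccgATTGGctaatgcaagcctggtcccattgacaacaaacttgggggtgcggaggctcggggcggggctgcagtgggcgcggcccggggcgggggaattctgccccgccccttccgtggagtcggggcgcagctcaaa
Abca1: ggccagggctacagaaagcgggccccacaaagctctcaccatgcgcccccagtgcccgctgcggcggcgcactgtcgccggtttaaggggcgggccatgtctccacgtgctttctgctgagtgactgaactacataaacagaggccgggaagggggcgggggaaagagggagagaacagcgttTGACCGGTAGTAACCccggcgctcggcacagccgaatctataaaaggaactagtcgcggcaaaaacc
Srebf1: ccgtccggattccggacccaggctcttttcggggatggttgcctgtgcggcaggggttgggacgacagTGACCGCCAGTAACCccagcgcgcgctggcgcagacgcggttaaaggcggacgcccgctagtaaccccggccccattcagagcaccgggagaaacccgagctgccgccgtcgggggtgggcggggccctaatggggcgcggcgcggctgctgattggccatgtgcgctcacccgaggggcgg

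Total counts ran from 11865646 to 35353441 per library. Prmt5 itself (GRCm38, chromosome 14, 54507187 to 54517525) was lower in every CKO library than in any WT library of its population, with a log2 fold change of -1.09 (DP), -0.99 (CD4 SP) and -0.31 (CD8 SP) for the thymus populations and -0.97 (CD4) and -0.87 (CD8) for the spleen. It was called in each population but thymus CD4 SP, where its adjusted p was 0.958. By Ddx3y, a Y-linked gene, all spleen libraries were female. In thymus CD8 SP the 3 WT libraries and CKO 1 were male and CKO 2 and CKO 3 female, and in thymus DP and CD4 SP the animals WT 18 and CKO 17 were male. In thymus CD4 SP the libraries CKO 14 and CKO 17 stood apart from the rest, and the tests of that population are also given with each of them left out. T cell markers, such as the CD3 chains and Lck, summed to at least 2266 CPM in every library.

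In thymus DP, 0 of 31 members changed between the genotypes with edgeR's quasi-likelihood test, beside 0.0258% of all genes tested (0.0172% higher and 0.0086% lower). At an unadjusted p below 0.05 the count was also 0, and DESeq2 and limma each called 0. Estimates ran from -0.25 to 0.16, with a median of -0.04 over the members and 0.00 over all genes tested. The smallest p belonged to Pmvk, the phosphomevalonate kinase, at 15.5, 16.1 and 17.2 CPM in WT and 12.4, 13.8 and 15.01 CPM in CKO, a log2 fold change of -0.25 ± 0.12 (SE, adjusted p = 0.709). Every CKO library lay below every WT library for it, and no other member lay so, where 5.94% of all genes did. Npc2, the soluble protein that hands cholesterol to NPC1 in lysosomes, came next, at 147, 145 and 152 CPM in WT and 166, 149 and 175 CPM in CKO, with a log2 fold change of 0.14 ± 0.07 (SE, adjusted p = 0.732). Npc1, its partner in the lysosome membrane, was the 1 member with all CKO libraries above WT, as 6.21% of all genes were, at 124, 120.4 and 125 CPM in WT and 135, 137 and 128 CPM in CKO, with an estimate of 0.12 ± 0.06 (SE, adjusted p = 0.75). No member lay 1.5-fold or more from the WT mean in any CKO library, beside 3.58% to 6.53% of all genes per library. In all 24 measured cell cycle markers the estimate was below 0, with none called, and what part that has in the members' values was not tested.

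Thymus CD4 SP gave 0 called members of 31, with 0% of all genes called. Prmt5 itself was not called there, so a count of 0 says little about the members. With all 6 libraries 0 members had an unadjusted p below 0.05, and DESeq2 and limma called 0. At that unadjusted p there was 1 member without CKO 14, Sqle at -0.86 ± 0.26 (SE, adjusted p = 0.387), 0 without CKO 17, and 2 without CKO 23, Npc2 and Insig1, each adjusted p = 0.693. Without overlap, 1 member (Nsdhl) lay above WT and 4 (Idi1, Sqle, Insig1 and Abcg1) below, beside 4.73% and 5.38% of all genes. Without CKO 14 and without CKO 17 in turn, the estimates were 0.21 and 0.73 for Nsdhl, -0.37 and -0.77 for Idi1, -0.86 and -0.33 for Sqle, and -0.12 and -0.12 for Abcg1. Here the estimates were wide, from -0.66 to 0.60, and they ran from -0.86 to 0.32 without CKO 14 and from -0.77 to 0.73 without CKO 17. In CKO 14, 13 of 31 members lay above the WT range and 15 below it, beside 41.1% and 45.4% of all genes, so both are near the background. In that library 18 of 31 were at least 1.5-fold from the WT mean, as were 55.5% of all genes. CKO 17 had 4 such members and CKO 23 had 0, beside 24% and 6.29% of all genes. Members of the same route lay on both sides in CKO 14. Sc5d, the sterol desaturase, stood at 38.1, 39.5 and 32.1 CPM in WT and 11.8, 32.9 and 33.4 CPM in CKO. Dhcr7, the last reductase of the route, stood at 57.3, 60.98 and 67.5 CPM in WT and 123, 61.4 and 61.9 CPM in CKO. In CKO 14 the first was at 0.323 of the WT mean and the second at 1.99-fold of it, while CKO 17 and CKO 23 lay near the WT libraries for both. Srebf2 stood at 287, 281 and 342 CPM in WT and 553, 251 and 274 CPM in CKO. Abca1, the exporter that loads cholesterol onto lipid-poor apolipoprotein, stood at 93.5, 54.2 and 76.2 CPM in WT and 27.8, 105 and 77.3 CPM in CKO. CKO 14 was the highest library for Srebf2 and the lowest for Abca1, for which CKO 17 was the highest. The log2 fold changes without CKO 14 and without CKO 17 in turn were -0.15 and -0.67 for Sc5d, -0.02 and 0.63 for Dhcr7, -0.22 and 0.49 for Srebf2, and 0.28 and -0.49 for Abca1. So Dhcr7, Srebf2 and Abca1 changed sign with the library left out, and none of these 4 was called in either fit.

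**Figure D1:**
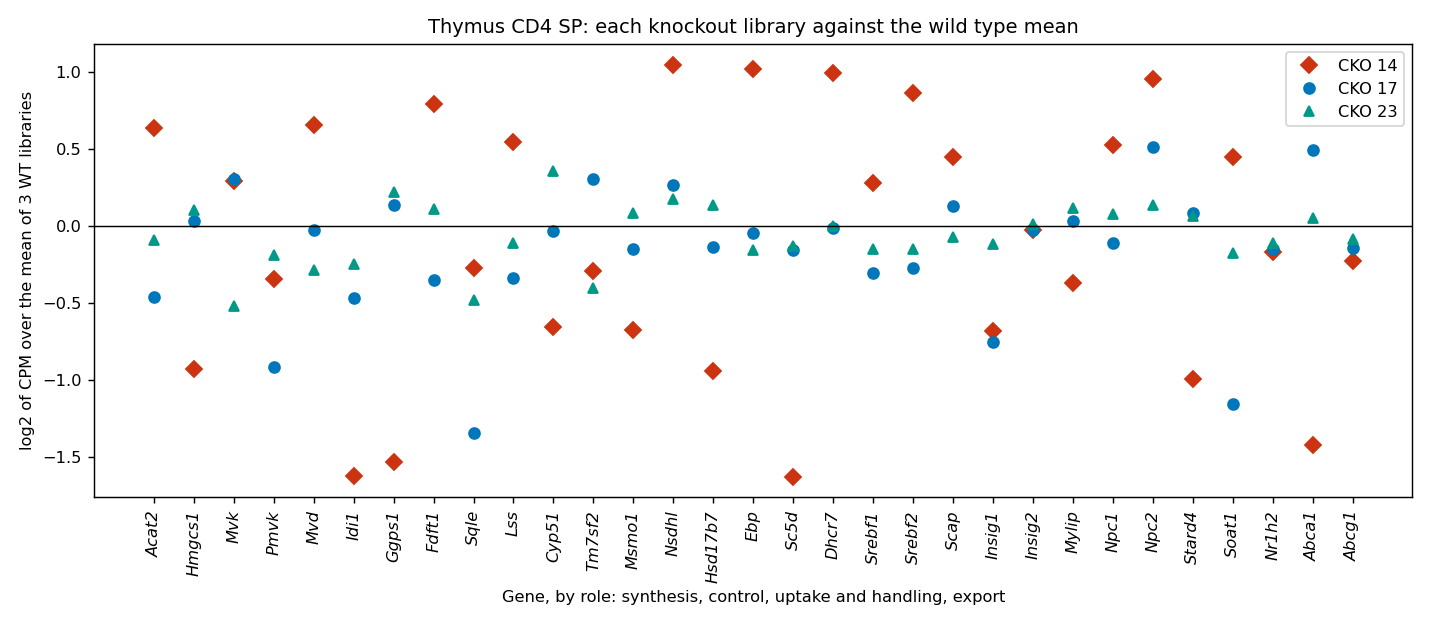
Each point is 1 thymus CD4 SP knockout library for 1 gene, as the log2 of its CPM over the mean of the 3 WT libraries (y axis), with the 31 members by role on the x axis. CKO 14 lies farthest from 0 for most genes and on both sides, and CKO 23 stays within 1.5-fold of the WT mean for all 31.

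Markers moved with these libraries. Summed markers of the double-positive stage ran from 1684 to 9452 CPM in the CKO libraries against 4716 to 7311 in WT, and summed T cell markers reached 10462 CPM against 6346 in WT. Their part in the members' values was not tested. Npc2 was higher in 2 of 3 CKO libraries than in any WT library, at 214, 264 and 228 CPM in WT and 456, 336 and 258 CPM in CKO, with a log2 fold change of 0.60 ± 0.27 (SE, adjusted p = 0.958). Without CKO 14 its estimate was 0.32 ± 0.16 (SE, adjusted p = 0.464), and without CKO 17 it was 0.65 ± 0.31 (SE, adjusted p = 0.783). Insig1, one of the retention proteins, stood at 116, 121 and 126 CPM in WT and 75.2, 71.6 and 112 CPM in CKO, with a log2 fold change of -0.47 ± 0.23 (SE, adjusted p = 0.958). All 3 CKO libraries were below WT, CKO 23 by little. Its estimate was -0.41 ± 0.20 (SE, adjusted p = 0.460) without CKO 14 and -0.34 ± 0.24 (SE, adjusted p = 0.783) without CKO 17. Leaving out any of the 3 CKO libraries called 0 members.

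In thymus CD8 SP, 0 of 32 members were called, beside 0.114% of all genes (0.0335% higher and 0.0805% lower), and DESeq2 and limma called 0. Prmt5 itself stood at 149, 135 and 148 CPM in WT and 116, 117 and 115 CPM in CKO. Its fall was the smallest of the 5 populations, so a count of 0 says little about a fuller loss of Prmt5. At an unadjusted p below 0.05 there were 4 members. Estimates were small, from -0.21 to 0.22, and 24 of 32 were above 0, with a median of 0.06 against 0.00 over all genes. The shares of all genes at that p or above 0 were not counted, so whether the 4 and the 24 stand out is not known. Fdft1, squalene synthase, stood at 27.7, 26.2 and 27.1 CPM in WT and 33.2, 31.6 and 29.9 CPM in CKO, with a log2 fold change of 0.22 ± 0.07 (SE, adjusted p = 0.283). Hmgcs1, the synthase at the entry of the mevalonate route, stood at 75.7, 66.7 and 69.2 CPM in WT and 78.02, 79.03 and 85.6 CPM in CKO, with a log2 fold change of 0.20 ± 0.06 (SE, adjusted p = 0.283). For both genes the 3 CKO libraries lay above the 3 WT libraries without overlap, as 7.74% of all genes did. Abca1 stood at 31.7, 33.5 and 33.7 CPM in WT and 31.05, 26.6 and 27.7 CPM in CKO, below WT in all 3 CKO libraries as 7.68% of all genes were, with a log2 fold change of -0.21 ± 0.08 (SE, adjusted p = 0.360). The fourth, Insig1, stood at 69.5, 60.5 and 60.4 CPM in WT and 68.8, 71.2 and 75.4 CPM in CKO, with a log2 fold change of 0.18 ± 0.07 (SE, adjusted p = 0.377), and here the genotypes overlapped. Sex differs between the genotypes in this population, with no female WT library. A fit with sex as a term also called 0 members. Over all genes it called 2 higher and 1 lower, against 5 and 12 without the term. As 0 members were called without the term, this count says nothing about sex in the members' values. Summed cell cycle markers were 11246 to 11905 CPM in WT and 12071 to 12425 in CKO. Summed markers of the double-positive stage were 3252 to 3426 CPM in WT and 3441 to 3785 in CKO, with 7 of 10 at an unadjusted p below 0.05 and 0 called. The part of both groups in the members' values was not tested.

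**Figure D2:**
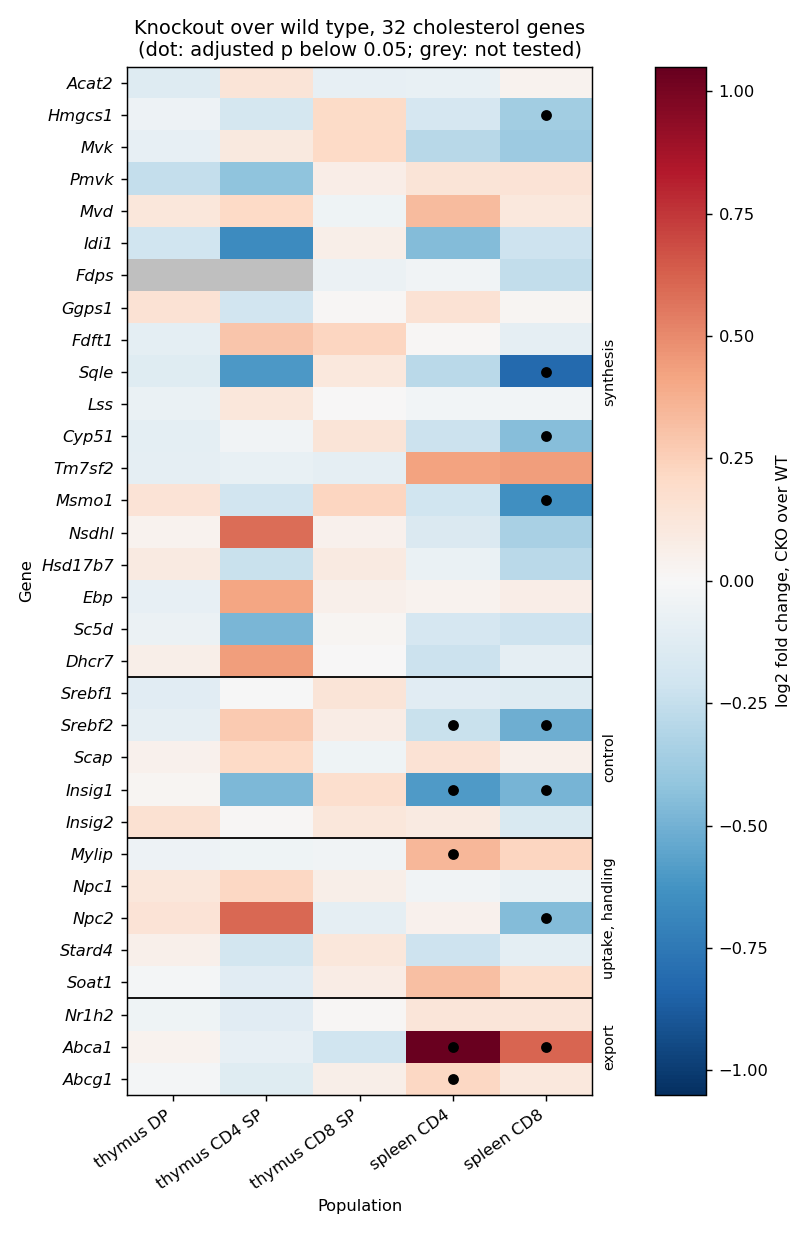
Colours give the log2 fold change of CKO over WT for 32 genes (rows, grouped by role) in 5 populations (columns), a dot marks an adjusted p below 0.05, and grey marks Fdps where it was not tested. Dots stand in the spleen columns only, 5 in spleen CD4 and 8 in spleen CD8, while the 3 thymus columns have none. Prmt5 itself was not called in thymus CD4 SP and fell least in thymus CD8 SP.

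In spleen CD4 cells 5 of 32 members changed, which is 15.6% beside 14.2% of all genes tested, so the share is near the background. By direction, 3 rose, beside 8.53% of all genes, and 2 fell, beside 5.63%. The 3 that rose were Abca1, Abcg1 and Mylip. The 2 that fell were Insig1 and Srebf2. Without overlap, 5 members lay above WT and 7 below, beside 17.3% and 15.7% of all genes. None of the 19 synthesis genes passed with edgeR. Of these, 6 had an unadjusted p below 0.05 and 13 had an estimate below 0. The shares of all genes for either were not counted, so these counts have no background beside them. The median estimate of the synthesis genes was -0.08 against -0.01 over all genes tested. DESeq2 and limma voom with quality weights called 6 and 5 members over all roles.

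Export genes gave the largest member effect. Abca1 (GRCm38, chromosome 4, 53030787 to 53159895), whose promoter is printed above, stood at 51.1, 63.7 and 46.1 CPM in WT and 115, 91.6 and 123 CPM in CKO. All CKO libraries were above all WT libraries, 2.05-fold on average, with a log2 fold change of 1.04 ± 0.13 (SE, adjusted p = 0.000292). Abcg1 (GRCm38, chromosome 17, 31057675 to 31117988), the exporter that passes cholesterol to larger lipoproteins, stood at 159, 163 and 149 CPM in WT and 179, 191 and 176 CPM in CKO. The genotypes did not overlap, but the shift was small, with a log2 fold change of 0.22 ± 0.07 (SE, adjusted p = 0.0467), and 9 of 12 alternative fits took its adjusted p above 0.05, to at most 0.160. Nr1h2, the receptor, stood at 162, 150.2 and 163 CPM in WT and 151, 194 and 174 CPM in CKO with overlap, and its estimate was 0.12 ± 0.09 (SE, adjusted p = 0.383). Summed myeloid markers, among them Lyz2 and Csf1r, moved with these genes: they were 86.0 to 130.2 CPM in WT and 148.8 to 329.6 CPM in CKO, with all 11 that were measured called higher, of a list of 12. Macrophages also express Abca1 and Abcg1, and the part of such cells in the result was not tested. In bulk libraries, more cells of a type and more RNA per cell cannot be told apart.

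Among uptake and handling genes, Mylip (GRCm38, chromosome 13, 45389742 to 45412022) rose. It stood at 82.7, 77.5 and 73.1 CPM in WT and 98.2, 101 and 98.1 CPM in CKO, without overlap, with a log2 fold change of 0.35 ± 0.07 (SE, adjusted p = 0.00565). Soat1, which esterifies cholesterol for storage, was the nearest of those not called, at 42.2, 34.8 and 34.97 CPM in WT and 50.3, 41.9 and 46.96 CPM in CKO, where WT 67 overlapped with CKO 68, and its estimate was 0.32 ± 0.10 (SE, adjusted p = 0.0567). Stard4, a cytosolic sterol carrier, pointed the other way, at 37.6, 41.8 and 41.4 CPM in WT and 36.8, 33.1 and 33.8 CPM in CKO, with an estimate of -0.22 ± 0.08 (SE, adjusted p = 0.111). Npc1, the lysosomal membrane transporter, and its partner Npc2 had estimates of -0.04 ± 0.08 (SE) and 0.05 ± 0.06 (SE), neither called.

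Of the control genes, Insig1 (GRCm38, chromosome 5, 28071363 to 28078662) fell most. It stood at 107, 103 and 114 CPM in WT and 67.8, 78.6 and 68.4 CPM in CKO. No CKO library reached a WT library, and the fold was 0.663, with a log2 fold change of -0.59 ± 0.08 (SE, adjusted p = 0.000428). Srebf2 (GRCm38, chromosome 15, 82147181 to 82205379) stood at 365, 352 and 336 CPM in WT and 297, 319 and 277 CPM in CKO, lower without overlap, with a log2 fold change of -0.24 ± 0.07 (SE, adjusted p = 0.0434). That call was lost without any 1 of WT 67, WT 70, WT 71, CKO 65 or CKO 72, with an adjusted p of at most 0.183. Scap stood at 119.6, 119.6 and 106 CPM in WT and 125, 134 and 124 CPM in CKO, with an estimate of 0.16 ± 0.07 (SE, adjusted p = 0.171). Srebf1 and Insig2 had estimates of -0.12 ± 0.07 (SE) and 0.09 ± 0.15 (SE). The 5 control genes thus held 2 that fell and 3 that did not pass, of which Scap and Insig2 had positive estimates.

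The synthesis genes in spleen CD4 that came nearest to a call were Cyp51, the sterol demethylase, and Mvd, the mevalonate decarboxylase. Cyp51 stood at 47.99, 50.1 and 50.4 CPM in WT and 43.9, 43.2 and 39.5 CPM in CKO, below WT in all 3 CKO libraries, with an estimate of -0.23 ± 0.08 (SE, adjusted p = 0.0672). Mvd stood at 15.9, 11.2 and 13.7 CPM in WT and 17.2, 17.6 and 16.4 CPM in CKO, with an estimate of 0.33 ± 0.14 (SE, adjusted p = 0.133). Summed over the 19 genes, synthesis CPM was 497, 465 and 484 in WT and 483, 451 and 448 in CKO, so the genotypes overlapped.

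**Figure D3:**
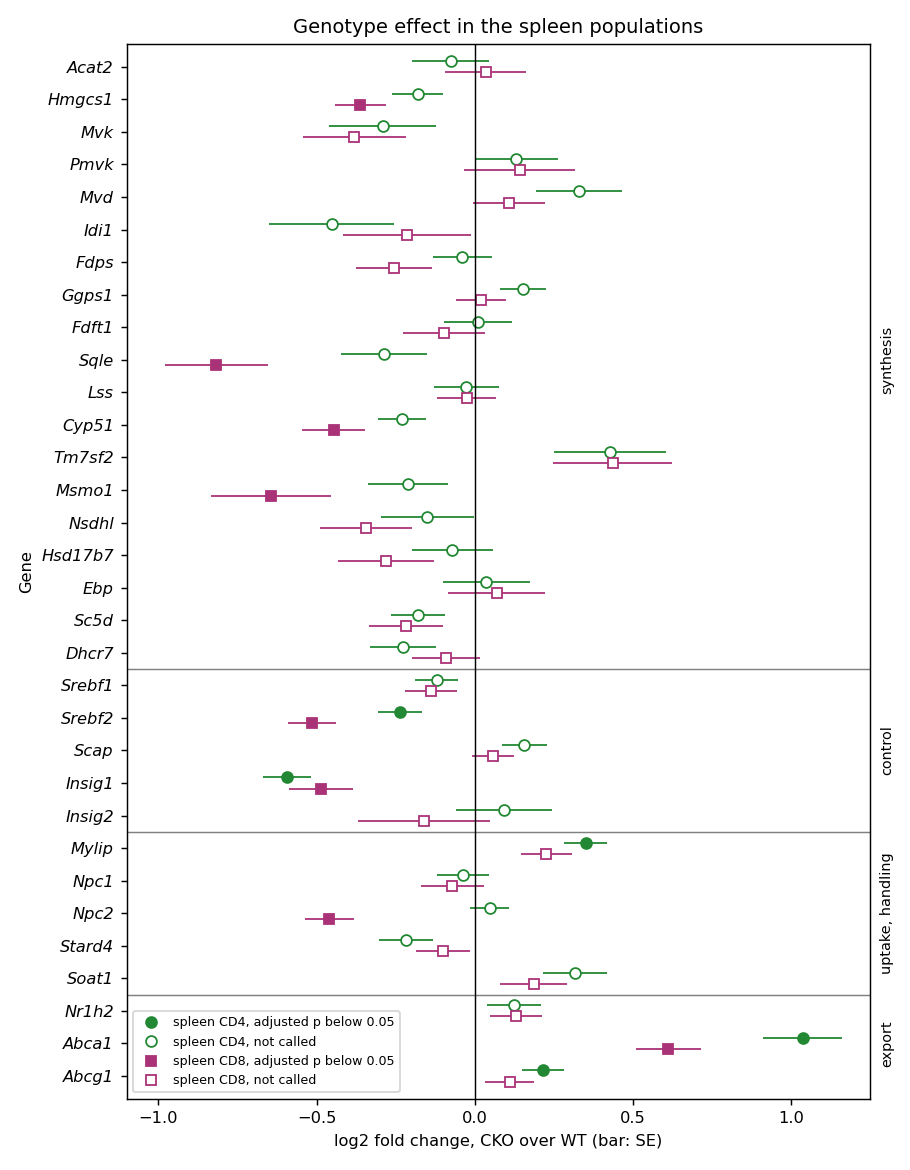
Points give the log2 fold change of CKO over WT in spleen CD4 (circles) and spleen CD8 (squares) with 1 SE on each side, for 32 genes grouped by role, and filled points have an adjusted p below 0.05. Abca1 lies to the right in both populations and Insig1 and Srebf2 to the left in both, while the filled synthesis genes Sqle, Msmo1, Cyp51 and Hmgcs1 are filled in spleen CD8 only, a difference that did not pass a test of its own.

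In spleen CD8 cells 8 of 32 members changed, which is 25% beside 16.1% of all genes tested. The 7 that fell stand beside 6.22% of all genes called lower, and the 1 that rose beside 9.83% called higher. The 7 were the synthesis genes Sqle, Msmo1, Cyp51 and Hmgcs1, the control genes Srebf2 and Insig1, and Npc2, and the 1 that rose was Abca1. Over the 32 members 20 estimates were below 0, and the median was -0.10 against -0.01 over all genes. The share of all genes with an estimate below 0 was not counted.

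Synthesis genes are taken in the order of the route. Hmgcs1 (GRCm38, chromosome 13, 119690379 to 119708260) stood at 69.9, 67.1 and 72.5 CPM in WT and 50.6, 58.5 and 53.5 CPM in CKO, with a log2 fold change of -0.36 ± 0.08 (SE, adjusted p = 0.0124). Sqle (chromosome 15, 59315077 to 59331192), the epoxidase that commits squalene to sterol, stood at 12.8, 11.5 and 14.2 CPM in WT and 7.84, 5.84 and 8.15 CPM in CKO, with a log2 fold change of -0.82 ± 0.16 (SE, adjusted p = 0.00678). It had the lowest estimate of all members, and its CKO libraries were at 0.568 of WT in the fit. Cyp51 (chromosome 5, 4081145 to 4104746) stood at 29.7, 28.96 and 32.3 CPM in WT and 21.04, 23.9 and 21.7 CPM in CKO, with a log2 fold change of -0.45 ± 0.10 (SE, adjusted p = 0.0121). Msmo1 (chromosome 8, 64718139 to 64733792), the methylsterol oxidase that acts later, stood at 14.5, 10.96 and 14 CPM in WT and 9.75, 9.31 and 6.15 CPM in CKO, with a log2 fold change of -0.64 ± 0.19 (SE, adjusted p = 0.0422). For all 4 genes each CKO library was below each WT library. Over all members 8 lay so and 3 above, beside 17.2% and 18.3% of all genes. Msmo1 was the least firm, as its call was lost without WT 67, WT 71 or CKO 72 (adjusted p at most 0.151), and Hmgcs1 and Cyp51 lost theirs without WT 71 (adjusted p 0.0658 and 0.0645).

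The other 15 synthesis genes did not pass. Of these, Mvk, the mevalonate kinase, stood at 9.95, 8.51 and 9.40 CPM in WT and 7.72, 7.75 and 5.87 CPM in CKO, with an estimate of -0.38 ± 0.16 (SE, adjusted p = 0.143). Nsdhl, a sterol dehydrogenase, stood at 17.9, 13.8 and 16.9 CPM in WT and 12.1, 11.4 and 14.7 CPM in CKO, with an estimate of -0.34 ± 0.15 (SE, adjusted p = 0.138). Mvk was lower in all 3 CKO libraries, whereas Nsdhl overlapped through CKO 72. On the positive side Tm7sf2, a sterol reductase, stood at 6.90, 6.53 and 4.45 CPM in WT and 8.14, 7.75 and 8.27 CPM in CKO, above WT in all 3 CKO libraries, with an estimate of 0.44 ± 0.19 (SE, adjusted p = 0.147). It was also positive in spleen CD4, at 8.59, 6.37 and 6.02 CPM in WT and 9.78, 9.94 and 8.44 CPM in CKO, with an estimate of 0.43 ± 0.18 (SE, adjusted p = 0.136). Over the 19 genes 13 estimates were below 0, a count with no share of all genes beside it, with a median of -0.21 against -0.01 for all genes tested. Their summed CPM was 443, 417 and 444 in WT and 397, 386 and 380 in CKO, without overlap.

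Both control genes called in spleen CD4 were called in spleen CD8 too. Srebf2 stood at 287, 280.5 and 282 CPM in WT and 205, 210.4 and 177 CPM in CKO, with a log2 fold change of -0.52 ± 0.08 (SE, adjusted p = 0.00123). Insig1 stood at 85.3, 82.9 and 84.2 CPM in WT and 49.98, 64.9 and 64.9 CPM in CKO, with a log2 fold change of -0.49 ± 0.10 (SE, adjusted p = 0.00897). Neither gene overlapped between the genotypes. Srebf1, Scap and Insig2 had estimates of -0.14 ± 0.08 (SE), 0.06 ± 0.07 (SE) and -0.16 ± 0.21 (SE), none called.

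Npc2 (GRCm38, chromosome 12, 84754562 to 84773152) fell in spleen CD8. It stood at 473, 409 and 413 CPM in WT and 325, 326 and 289 CPM in CKO, with a log2 fold change of -0.46 ± 0.08 (SE, adjusted p = 0.00296). Every CKO library was below every WT library, while Npc1 overlapped at 57.4, 67.9 and 66.2 CPM in WT and 67.2, 53.5 and 61.1 CPM in CKO, with an estimate of -0.07 ± 0.10 (SE). Mylip stood at 89.96, 76.2 and 79.6 CPM in WT and 101, 91.3 and 94.9 CPM in CKO, above WT without overlap, but did not pass, with an estimate of 0.23 ± 0.08 (SE, adjusted p = 0.0848). Abca1 rose, at 72.7, 96.6 and 82.02 CPM in WT and 122, 127 and 135 CPM in CKO, 1.53-fold on average, with a log2 fold change of 0.61 ± 0.10 (SE, adjusted p = 0.00245). Abcg1 stood at 158, 165 and 163 CPM in WT and 165, 192 and 167 CPM in CKO, with an estimate of 0.11 ± 0.08 (SE, adjusted p = 0.375), and Nr1h2 at 0.13 ± 0.08 (SE), neither called.

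Marker groups moved with genotype in spleen CD8 as well. Summed effector markers, such as the granzymes and Klrg1, were 627.6 to 859.0 CPM in WT and 1382 to 2080 CPM in CKO, with 14 of 15 called higher. Cell cycle markers were 846.8 to 900.5 CPM in WT and 1138 to 1436 CPM in CKO, with 19 of 25 called higher. Myeloid markers were 26.2 to 38.0 CPM against 51.4 to 80.6 CPM, with 5 of 10 called higher, and B cell markers 32.8 to 41.7 CPM against 54.6 to 63.8 CPM, with 1 of 6 called higher. The part of these groups in the fall of the synthesis genes, Srebf2, Insig1 and Npc2 and in the rise of Abca1 was not tested.

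**Figure D4:**
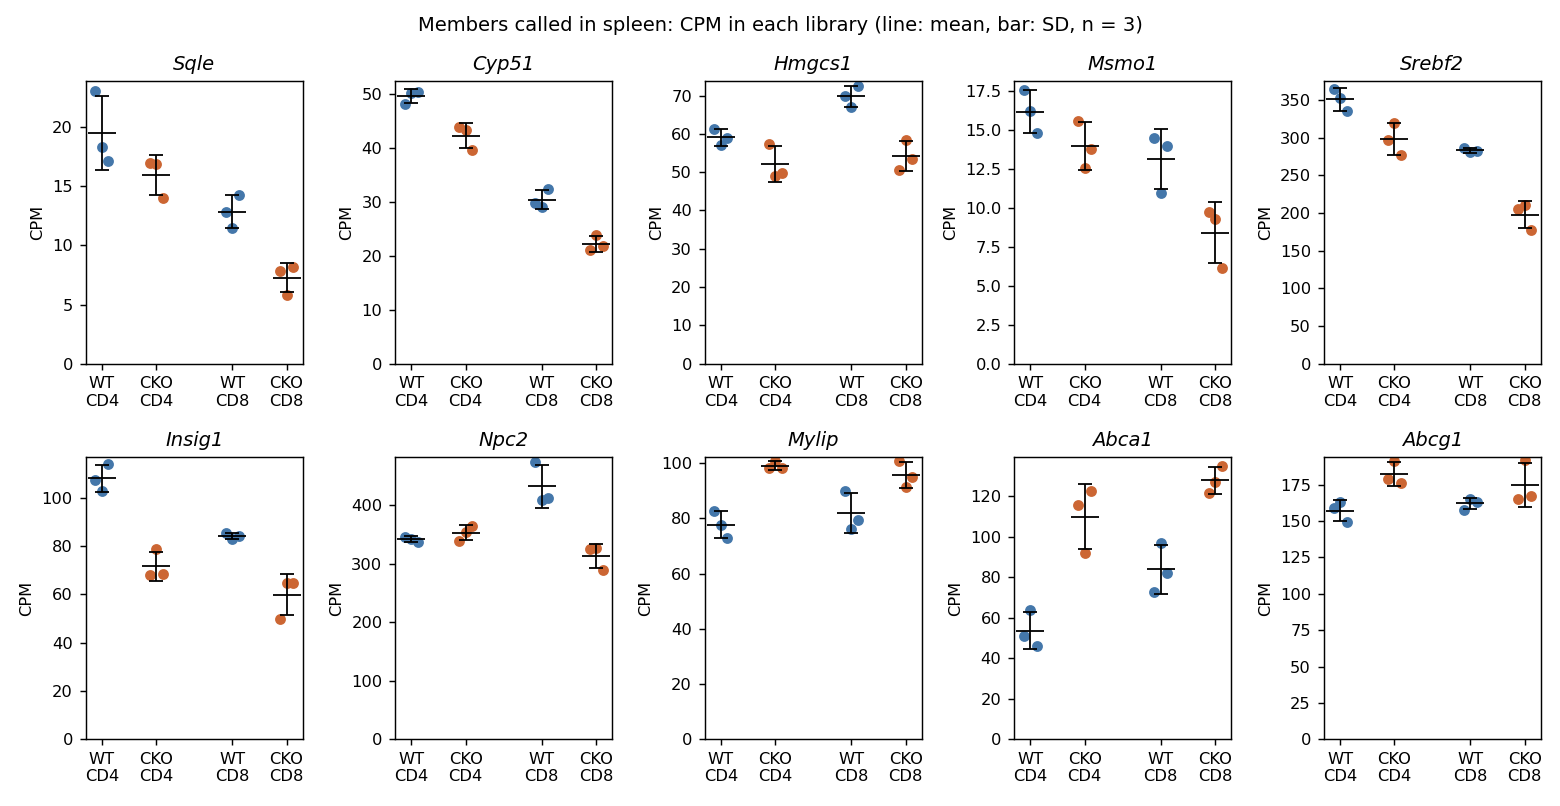
Each point is the CPM of 1 spleen library (y axis, from 0) for the 10 members called in either spleen population, by population and genotype on the x axis, with the mean as a line and the SD as a bar (n = 3). Abca1 is above WT in all CKO libraries of both populations, Insig1 and Srebf2 are below, and Npc2 is below WT in CD8 only.

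Whether the genotype effect differed between spleen CD8 and spleen CD4 was tested as an interaction over 12 libraries. It was called for 1 of 32 members, Npc2, beside 2.56% of all genes (1.81% higher and 0.749% lower). The effect on Npc2 was lower in CD8 by a log2 of -0.51 ± 0.10 (SE), adjusted p = 0.0101. With the animal as a block 3 members passed: Npc2 at -0.51 ± 0.08 (SE, adjusted p = 0.000883), Srebf2 at -0.28 ± 0.07 (SE, adjusted p = 0.0150) and Abca1 at -0.42 ± 0.10 (SE, adjusted p = 0.0217). The last 2 had adjusted p-values of 0.211 and 0.326 without the block. For Sqle the difference was -0.53 ± 0.22 (SE, adjusted p = 0.297), for Msmo1 -0.43 ± 0.24 (SE, adjusted p = 0.494), for Cyp51 -0.22 ± 0.11 (SE, adjusted p = 0.467) and for Hmgcs1 -0.18 ± 0.11 (SE, adjusted p = 0.559). So the synthesis genes called in CD8 were not shown to respond differently from CD4. In the thymus the same test between CD4 SP and DP called 0 of 31 members with edgeR, beside 0% of all genes, 0 had an unadjusted p below 0.05, and DESeq2 and limma called 0. Without CKO 14 or CKO 17 of the CD4 SP libraries edgeR also called 0 members.

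The WT libraries alone show how the 2 spleen populations differ at baseline. Between spleen CD8 and spleen CD4, 13 of 32 members differed, 5 higher and 8 lower in CD8, beside 31.9% of all genes. Cyp51 was lower in CD8 by a log2 of -0.72 ± 0.07 (SE, adjusted p = 1.05e-05), and Sqle by -0.61 ± 0.13 (SE, adjusted p = 0.00318). The other lower members were Fdps, Fdft1, Sc5d, Dhcr7, Srebf2 and Insig1, with estimates from -0.38 to -0.26. Higher in CD8 were Abca1 (0.63 ± 0.12 (SE)), Mvd (0.60 ± 0.13 (SE)), Npc2 (0.33 ± 0.06 (SE)), Hmgcs1 (0.23 ± 0.06 (SE)) and Srebf1 (0.19 ± 0.06 (SE)). The genotype effect in CD8 and this contrast use the same WT CD8 libraries, so their values stand side by side without a comparison. Myeloid markers moved with this contrast, at 86.0 to 130.2 CPM in WT CD4 and 26.2 to 38.0 CPM in WT CD8, with 9 of 11 called lower in CD8, and their part was not tested.

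Between WT thymus CD4 SP and DP cells 11 of 31 members differed, 5 higher and 6 lower in CD4 SP, beside 39.8% of all genes. Soat1 was lower by the largest step, from 217, 194 and 242 CPM in DP to 86.3, 65.7 and 127 CPM in CD4 SP, a log2 difference of -1.22 ± 0.19 (SE, adjusted p = 0.000214). Idi1, Tm7sf2, Insig2, Acat2 and Srebf2 were the other lower members, with estimates from -0.58 to -0.32. Npc2 was higher by 0.67 ± 0.10 (SE, adjusted p = 0.000179), and Cyp51 by 0.63 ± 0.13 (SE, adjusted p = 0.00180). Msmo1, Hsd17b7, a ketosteroid reductase, and Abcg1 were higher by 0.62, 0.51 and 0.37. All 24 measured cell cycle markers were lower in CD4 SP, and their part was not tested.

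Levels between genes are compared per kilobase of exon. In WT, Npc2 led in both spleen populations, with 62.8 CPM per kb in CD4 and 79.4 in CD8. Nr1h2 led in thymus DP and CD4 SP, with 75.6 and 79.5 CPM per kb, and Srebf2 in thymus CD8 SP, with 49.3. Synthesis genes were lower as a group, with a median of 5.54 CPM per kb in spleen CD4 and 4.96 in spleen CD8, against 22.2 and 25.6 for the control genes. Abca1, which moved most with genotype, was a modest transcript in WT spleen CD4, at 5.17 CPM per kb, and stood at 10.6 in CKO.

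Genes around the pathway were taken from 3 lists. Of 27 other sterol genes, 23 were measured in each spleen population. In spleen CD4, 4 changed (17.4%, beside 14.2% of all genes), and in spleen CD8 3 changed (13.0%, beside 16.1%), so both shares are near the background. In spleen CD4 Gramd1a, which moves cholesterol from the plasma membrane to the endoplasmic reticulum, rose from 594–654 CPM to 1164–1374, a log2 fold change of 1.06 ± 0.08 (SE, adjusted p = 1.12e-05). Abca7, a lipid transporter related to Abca1, rose from 287–342 CPM to 611–772, a log2 fold change of 1.14 ± 0.09 (SE, adjusted p = 2.64e-05). Osbp, an oxysterol-binding protein, rose by 0.21 ± 0.06 (SE), and Rnf139, a ubiquitin ligase of the endoplasmic reticulum, fell by 0.23 on the log2 scale. In spleen CD8 the 3 rose: Gramd1a by 0.85 ± 0.07 (SE), Abca7 by 0.92 ± 0.08 (SE) and Gramd1b by 0.57 ± 0.08 (SE). The Gramd1b effect was higher in CD8 than in CD4 by 0.59 ± 0.09 (SE, adjusted p = 0.00310).

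Of 11 genes of prenylation and other branches from the route, all measured, 1 changed in spleen CD4 (9.09%, beside 14.2% of all genes) and 3 in spleen CD8 (27.3%, beside 16.1%). Dhdds, of dolichol synthesis, rose in both, by 0.49 ± 0.10 (SE) and 0.49 ± 0.08 (SE). Fntb and Rabggta, subunits of prenyl transferases, fell in CD8 by 0.35 and 0.31. Of 14 fatty acid genes that SREBP factors are known to act on, 12 were measured in each spleen population, of which 2 changed in CD4 (16.7%, beside 14.2% of all genes) and 4 in CD8 (33.3%, beside 16.1%). In CD4 Acss2, an acetyl-CoA synthetase, rose by 0.82 ± 0.07 (SE), and Acsl3, an acyl-CoA synthetase, fell by 0.67. In CD8 the 4 rose, beside 9.83% of all genes called higher: Lpin1, a phosphatidate phosphatase, by 0.79 ± 0.10 (SE), Scd2, a desaturase, by 0.69 ± 0.08 (SE), Acss2 by 0.50 ± 0.08 (SE) and Fasn, fatty acid synthase, by 0.29 ± 0.07 (SE). For Scd2 and Lpin1 the effect in CD8 exceeded that in CD4, by 0.80 ± 0.11 and 0.67 ± 0.13 (SE, adjusted p = 0.00103 and 0.00835). No gene of the 3 lists was called between the genotypes in a thymus population with edgeR, where 6, 2 and 5 had an unadjusted p below 0.05 in DP, CD4 SP and CD8 SP.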

How the data were processed

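RNA of 30 libraries was poly(A)-selected, per the labels' protocols. The authors deposited raw counts per gene in 3 tables: thymus DP with CD4 SP, thymus CD8 SP, and spleen. Per the submitters' processing notes, HISAT2 and HTSeq were run on GRCm38. Versions, annotation and strand setting are not given in the sources, so antisense partners cannot be told apart. Groups and animal numbers come from the sample titles. Members and lists were chosen with earlier results of these data known.

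Each population was tested on its 6 libraries with edgeR 4.0.16 in R 4.3.3 (filterByExpr, TMM, quasi-likelihood test, Benjamini-Hochberg over all genes, threshold 0.05), and contrasts between populations of the same mice on 6 or 12. An SE is the log2 fold change over the square root of F. Shares of all genes at an unadjusted p below 0.05 were not counted, so counts at that p have no background. Printed CPM are TMM-scaled over a whole table, so levels in different tables are set side by side only. Replicate pairs differed by more than sampling noise (chi-square per degree of freedom of at least 6). The named members are those called, else the 2 with the smallest p, with neighbours by role chosen after their values were seen. Alternatives were DESeq2 1.42.0, its size factors, limma 3.58.1 voom, no filter, a minimum of 5 CPM in 3 libraries, omission of each library, a fit on 12 libraries, sex and the replicate block. The scripts were tested on simulated data with known changes. Of changes of log2 1, 0% were called in thymus CD4 SP, 52.0% in the spleen interaction and 75.3% to 82.5% in the other simulated comparisons. At log2 0.5 these shares were 0%, 12.2% and 33.3% to 53%. Genes without a change made up 5.26% to 10.1% of the calls where any were made. The thymus interaction was not simulated. Animal numbers pair the populations in the labels. Deviations of the same animal correlated at 0.148 to 0.617 across genes in the spleen, and at -0.241 to 0.339 in the thymus. Coordinates and exon lengths are from GENCODE M21 (GRCm38).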

Additional observations from a re-analysis of the deposited data

Results flagged for a closer look

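The genotype effect on Npc2 differed between spleen CD8 and spleen CD4, by a log2 of -0.51 in the interaction test, since it fell in CD8 and had an estimate of 0.05 in CD4.

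For 3 genes every CKO library lay on one side of the WT libraries in a thymus population and on the other side in a spleen population. In the directions concerned, 5.38% to 7.74% of all genes lay without overlap in these thymus populations, and 17.2% to 18.3% in the spleen. The share of all genes with opposite sides was not counted. Abca1 had a log2 fold change of -0.21 in thymus CD8 SP but 1.04 and 0.61 in spleen CD4 and CD8 cells. Hmgcs1 had 0.20 in thymus CD8 SP and -0.36 in spleen CD8. Abcg1 had -0.13 in thymus CD4 SP and 0.22 in spleen CD4. The thymus values were not called, and these differences were not tested, as the populations are in separate tables. In thymus CD8 SP, on which the Abca1 and Hmgcs1 flags rest, all WT libraries and CKO 1 were male, and CKO 2 and CKO 3 were female. Sex and genotype are thus largely confounded there.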

How the results depend on the processing

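Over 46 estimates and 575 alternative fits, 519 kept direction and side of the threshold, 56 kept direction and lost the call, and 0 reversed. The 46 are the members called in a comparison, or the 2 with the smallest p where none was called. Being chosen for a small p, they were unlikely to reverse. Dhcr7, Srebf2 and Abca1 in thymus CD4 SP, which changed sign with the library left out, are not among them. The 519 include fits of estimates that were not called in the thymus genotype comparisons and the thymus interaction, all of which stayed uncalled. For thymus CD4 SP and that interaction, staying uncalled says nothing about stability. The count of members called was 0 in all alternatives for the 3 thymus genotype comparisons and the thymus interaction. In thymus CD4 SP, where Prmt5 was not called either, and in the interaction that uses those libraries, such a count says nothing about stability. Leaving out each library in turn gave 3 to 5 in spleen CD4 (3 without WT 70, WT 71 or CKO 72), 5 to 8 in spleen CD8 (5 without WT 71), 10 to 12 between WT spleen CD8 and CD4, 6 to 13 between WT thymus CD4 SP and DP (7, 6 and 7 without DP WT 18, DP WT 24 and CD4 SP WT 15), and 1 in the spleen interaction. In these fits fewer samples enter. The spleen interaction called 2 members with no filter and 3 with the replicate block, for which the cause was not tested. The replicate block gave 14 members between WT spleen CD8 and CD4 (adding Mvk) and 12 between WT thymus CD4 SP and DP (adding Nsdhl), and changed no other call. In thymus CD8 SP the labels do not say what the numbers link. Deviations correlated at 0.0604 to 0.159 for the same number and at -0.146 to 0.00638 otherwise, so every library correlated best with its own number, a hint from the data and not the design. The replicate block called 0 members there. Counts over all genes (higher and lower) moved more. Thymus CD8 SP gave 5 and 12 as reported, 84 and 124 with DESeq2, 180 and 270 with no filter, 2 and 1 with sex as a term, 8 and 40 without WT 1, 1 and 0 without WT 2 or WT 3, 11 and 19 without CKO 1, 2 and 5 without CKO 2, 3 and 9 without CKO 3, and 3 and 11 with at least 5 CPM in 3 libraries. Thymus DP gave 2 and 1 as reported, 8 and 12 with DESeq2, 2 and 2 with no filter, 2 and 38 without WT 15, 7 and 2 without CKO 23, 0 and 1 without WT 18, WT 24 or CKO 14, and 0 and 0 with 12 libraries in 1 fit. Spleen CD4 gave 1219 and 805 as reported, 840 and 520 without WT 67, 767 and 445 without WT 70, 706 and 379 without WT 71, and 869 and 522 without CKO 72. Spleen CD8 gave 1368 and 866 as reported, 844 and 488 without WT 67, 939 and 472 without WT 70, 853 and 462 without WT 71, and 967 and 531 without CKO 72. The spleen interaction gave 271 and 112 as reported, 428 and 207 with DESeq2, 574 and 270 with no filter, 672 and 411 with the replicate block, and 192 and 56, 199 and 49, 188 and 56, and 200 and 46 without CD8 WT 67, CD8 WT 71, CD4 CKO 68 and CD8 CKO 72. It gave 209 and 56, 218 and 56, 208 and 56, and 207 and 53 without CD4 WT 67, CD4 WT 70, CD8 WT 70 and CD4 CKO 72.

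The library with the lowest depth was thymus CD4 SP CKO 23, at 11865646 counts. Libraries of that population reached 22881226 counts, and those of thymus DP ran from 13032992 to 18576401. Low members such as Idi1, at 2.07 to 7.79 CPM in thymus CD4 SP and in the spleen, carry the most counting error.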

Other observations

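Summed over the 19 synthesis genes, WT CPM was 590, 558 and 585 in thymus CD8 SP, 368, 386 and 411 in thymus DP, 390, 408 and 382 in thymus CD4 SP, 497, 465 and 484 in spleen CD4, and 443, 417 and 444 in spleen CD8. Fdps contributes almost nothing to the DP and CD4 SP sums, and at 50.8 to 64.4 CPM it adds to the thymus CD8 SP sum. The tables were counted separately, so no test was made between them.

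Other patterns in the promoter windows were searched after looking at them. The GC box GGGCGG was in windows of 23 of 26 members. By window, it was in 79.4% of member windows and in 35.7% of all windows. The E box CACGTG was in 20.6% of member windows and in 7.15% of all windows. It was found in windows of 6 members, which were Abca1, Dhcr7, Hsd17b7, Insig1, Sc5d and Scap. A shorter sterol element, CACCCCAC, was found in Acat2 and Hmgcs1, in 5.88% of member windows and in 2.87% of all windows.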
